A study of Homo sapiens with 12 samples.

Results

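AC104257.1 is a long intergenic non-coding RNA gene (identifier ENSG00000253507.5) that was examined here as 1 of the 36762 gene symbols in each of 2 bulk RNA sequencing count tables. It was selected on its measured values: its level was higher in TET1 knockout cells at both stages of the study, and its rise was compared with that of non-coding genes of similar level. Its genotype differences are therefore given as descriptions, with no test. The study used UCLA1, an established human embryonic stem cell line, and compared control lines (CTRL) with lines in which the catalytic domain of TET1 was knocked out (CDKO). Each genotype was sequenced as undifferentiated stem cells (hESC) and as incipient mesoderm-like cells (iMeLC), the intermediate through which such cells pass on the way to primordial germ cell-like cells. The 4 groups hold 3 libraries apiece, 12 in all, and no treatment beyond the differentiation is labelled. The labels number the lines (CTRL1101, CTRL1106, CTRL1109, CDKO1102, CDKO1105 and CDKO1312). No source used here says whether the lines of a genotype are separate clones, so p-values measure the spread between these libraries, which may be technical.

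TET1 is a dioxygenase that oxidises 5-methylcytosine in DNA to 5-hydroxymethylcytosine, a step in removing DNA methylation from promoters and enhancers, and it is abundant in pluripotent cells. Long intergenic non-coding RNAs are transcripts from outside protein-coding genes that carry no long reading frame. Many long non-coding RNAs of human pluripotent cells, LINC-ROR and ESRG among them, contain sequence of the endogenous retrovirus family HERVH. The long terminal repeats of HERVH act as promoters in these cells. The function of AC104257.1 is not known from the files or labels.

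In the GENCODE 29 annotation (GRCh38), AC104257.1 lies on the plus strand of chromosome 8 from base 131308545 to 131317632, a span of 9088 bases that no other annotated gene overlaps. It has 3 annotated transcripts of 884, 854 and 731 bases, whose exons together cover 984 bases in 5 blocks. The longer pair share a first exon at 131308545 to 131308671. The shortest transcript has 4 exons and starts within the gene, at base 131310472. The longest closed open reading frame in each transcript is 78 codons. The transcripts have a GC content of 46.4% to 47.6% and hold 8 or 9 CpG dinucleotides.

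Library totals were 12517593 to 18855099 counts in hESC and 52121702 to 109479071 counts in iMeLC, so the same level was measured with less counting error in iMeLC. Summed pluripotency markers (9 of 9 tested) were 11714 to 13770 counts per 1000000 (CPM) in hESC and 5539 to 6688 CPM in iMeLC. Summed primitive streak markers (8 of 9 tested) were 30.8 to 266 CPM in hESC and 305 to 1124 CPM in iMeLC. The germ cell marker DDX4 had at most 4 counts in any hESC library and at most 2 in any iMeLC library. TET1 itself was at 325, 379.9 and 344 CPM in CTRL hESC and 424, 448 and 378 CPM in CDKO hESC, and at 257, 289 and 265 CPM in CTRL iMeLC and 288, 309 and 268 CPM in CDKO iMeLC. Neither difference passed (edgeR quasi-likelihood test, adjusted p = 0.209 and 0.577). Its relatives TET2 (log2 fold change 0.29 in hESC and 0.43 in iMeLC, adjusted p = 0.201 and 0.329) and TET3 (0.18 and 0.14, adjusted p = 0.313 and 0.470) did not pass either. Counts per gene cannot single out the deleted exons, so they do not check the knockout.

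AC104257.1 was detected in all 3 control stem cell libraries and was higher in all 3 knockout stem cell libraries. Its counts were 134, 268 and 300 in the 3 CTRL hESC libraries and 1261, 1823 and 1653 in the 3 CDKO hESC libraries. Scaled within the stage, the CTRL libraries held 8.24, 15.2 and 15.6 CPM, and the CDKO libraries 103, 100.4 and 95.6 CPM. The groups did not overlap: the lowest CDKO library was 6.15-fold above the highest CTRL library, while the libraries of a group spanned 1.89-fold in CTRL and 1.08-fold in CDKO. Of the 17222 genes tested in hESC, 11.2% had all 3 CDKO libraries above all 3 CTRL libraries. The means were 13.0 ± 4.11 CPM (SD, n = 3) and 99.7 ± 3.73 CPM (SD, n = 3), a log2 fold change of 2.93 (SE 0.19), or 7.63-fold. That was the 7th largest rise among the genes tested.

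The incipient mesoderm-like cells had the same order of groups. Counts were 1232, 1970 and 1764 in CTRL1101, CTRL1106 and CTRL1109, and 7753, 11094 and 7280 in CDKO1102, CDKO1105 and CDKO1312. The CTRL values corresponded to 12.8, 20.5 and 15.6 CPM, and the CDKO values to 153, 127 and 92.9 CPM. Again no CTRL library reached a CDKO library, and the lowest CDKO value, in CDKO1312, was 4.53-fold above the highest CTRL value, in CTRL1106. Of the 19999 genes tested in iMeLC, 12.2% had all CDKO libraries above all CTRL libraries. The means were 16.3 ± 3.87 CPM (SD, n = 3) and 124 ± 30.2 CPM (SD, n = 3), a log2 fold change of 2.93 (SE 0.23), or 7.61-fold, ranked 29th. The CDKO libraries were spread over 1.65-fold in iMeLC against 1.08-fold in hESC.

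**Figure D1:**
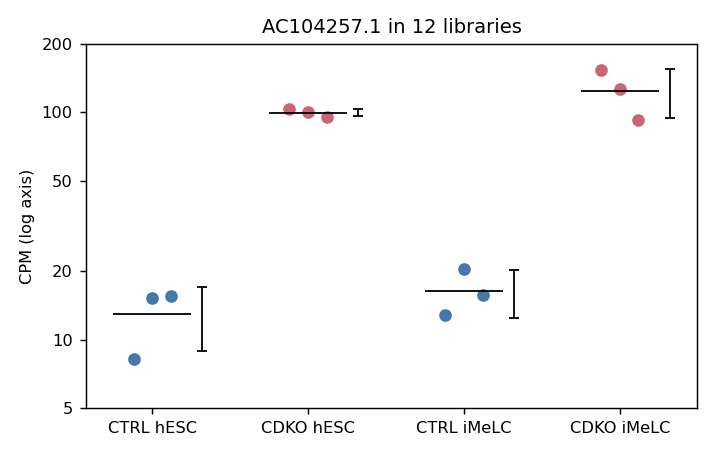
Level of AC104257.1 in CPM, scaled within each stage, on a log axis. Each point is 1 library, the line is the group mean and the bar beside it is the SD (n = 3). The CDKO libraries sit between 92.9 and 153 CPM and the CTRL libraries between 8.24 and 20.5 CPM.

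Per kilobase of exon, the level was 13.2 CPM per kb in CTRL hESC and 101 CPM per kb in CDKO hESC. On that length-adjusted scale AC104257.1 stood above 81.6% of the 16816 genes with a known length in CTRL hESC and above 98.3% of them in CDKO hESC. In iMeLC it was at 16.6 CPM per kb in CTRL and 126 CPM per kb in CDKO, above 86.8% and 98.7% of 19379 genes. The gene was thus detected in every control library and moved into the top few percent of genes in the knockout.

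With 1 library left out at a time, or with another scaling, filter or test, the log2 fold change of AC104257.1 was 2.69 to 3.08 in hESC and 2.76 to 3.13 in iMeLC (11 alternatives each). Only 6 genes of 17071 tested at both stages were called higher in CDKO at both (0.0351%), and AC104257.1, selected for this, is 1 of them. The calls are those of edgeR's quasi-likelihood test at an adjusted p under 0.05, by which 0.598% of genes were called higher and 0.714% lower in hESC, and 0.08% higher and 0.265% lower in iMeLC. The other 5 were TRDN (triadin, of the muscle calcium-release complex), PCDHGC4 (a clustered protocadherin), B4GALNT1 (a ganglioside synthase), EHBP1L1 and OLIG2 (a neural transcription factor). In hESC their log2 fold changes were 1.15 for TRDN, 1.72 for PCDHGC4, 1.98 for B4GALNT1, 1.24 for EHBP1L1 and 2.71 for OLIG2, each smaller than the 2.93 of AC104257.1. In iMeLC, OLIG2 had the larger value, 5.21, from 0.0375 ± 0.0357 CPM in CTRL and 1.48 ± 0.194 CPM in CDKO (SD, n = 3), with 1 CTRL library at 0 counts. Each of these 5 lost a call when 1 library was left out. Of the 6 fits at each stage that leave out 1 library, OLIG2 lost its call in 5 and 5 (hESC and iMeLC), EHBP1L1 in 3 and 5, B4GALNT1 in 1 and 4, PCDHGC4 in 1 and 3, and TRDN in 3 and 0. All of them but TRDN lost it in iMeLC without any 1 of the CDKO lines, and all of them lost it in hESC without CDKO library 2. Reads of overlapping genes and close copies, such as the protocadherins, cannot be assigned with certainty.

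Summed markers of some other cell types were also higher in CDKO libraries, each set without overlap at 1 stage only. Among single genes tested, 11.2% in hESC and 12.2% in iMeLC had all CDKO libraries above all CTRL libraries. Summed primitive streak markers were 30.8 to 77.3 CPM in CTRL hESC and 78.2 to 266 CPM in CDKO hESC, with 1 of 8 (NODAL, chosen after its value was seen) called higher. The nearest sums were 77.3 and 78.2 CPM. Taken singly, TBXT, EOMES, MIXL1 and SP5 each overlapped between the genotypes in hESC, and overlap of the other members is not given here. Summed endoderm markers (5 of 5 tested) overlapped in hESC, at 6.40 to 23.8 CPM in CTRL and 12.4 to 163 CPM in CDKO. They were 11.8 to 112 CPM in CTRL iMeLC and 131 to 293 CPM in CDKO iMeLC. None of the 5 was called at either stage. The third CDKO hESC library stood apart: SOX17, an endoderm and germ cell factor, was at 61.9 CPM there, against 4.98 and 5.12 CPM in the first and second. AC104257.1 was at 95.6 CPM in that library against 103 and 100.4 CPM, and without that library its log2 fold change in hESC was 2.96. Summed streak markers overlapped between the genotypes in iMeLC (305 to 1006 CPM in CTRL, 882 to 1124 CPM in CDKO). Summed germ cell markers (4 of 6 tested) were 38.7 to 41.5 CPM in CTRL hESC and 54.3 to 65.2 CPM in CDKO hESC, and 32.3 to 67.7 CPM and 62.7 to 77.2 CPM in iMeLC, where they overlapped. Summed neural markers (4 of 4 tested) were 27.5 to 34.8 CPM in CTRL iMeLC and 50.2 to 94.5 CPM in CDKO iMeLC, and overlapped in hESC (38.5 to 64.7 CPM and 50.1 to 65.1 CPM). Those of fibroblasts and of amnion or trophectoderm overlapped between the genotypes at both stages. In bulk RNA, a larger share of cells expressing a gene and more RNA per cell cannot be told apart. The part of the marker differences in the level of AC104257.1 was not tested.

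The stage contrast did not enter the selection and was tested. On a scaling over all 12 libraries, AC104257.1 was at 7.36, 13.5 and 13.8 CPM in CTRL hESC and 14.4, 22.8 and 17.3 CPM in CTRL iMeLC. All 3 iMeLC values lay above the hESC values, the nearest pair being 13.8 and 14.4 CPM, as did those of 30.6% of 20262 genes. The log2 difference of iMeLC over hESC in CTRL was 0.65 (SE 0.24, adjusted p = 0.036, edgeR quasi-likelihood test). In CDKO, the values were 91.1, 88.7 and 84.7 CPM in hESC and 173, 146 and 105 CPM in iMeLC, also without overlap, as for 36.1% of genes. There the log2 difference was 0.68 (SE 0.22, adjusted p = 0.0186). Such calls were common: 29.5% of these genes were called higher in iMeLC in CTRL and 32.1% in CDKO.

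The stage difference was small beside the genotype difference and depended on the scaling. With upper-quartile scaling it was 0.28 in CTRL (adjusted p = 0.337) and 0.21 in CDKO (adjusted p = 0.428), where the median of all genes moved to -0.39 and -0.55, from -0.014 and -0.079. Relative to that median, AC104257.1 was at 0.66 in CTRL and 0.76 in CDKO under the TMM scaling, and at 0.67 and 0.76 under the upper-quartile scaling. In CTRL the call was lost without CTRL hESC library 1 (0.44), CTRL1106 iMeLC (0.40), CTRL1109 iMeLC (0.64) or CDKO1105 iMeLC (0.60), and over 16 alternatives the adjusted p ran from 0.00551 to 0.337. In CDKO it was lost without CDKO hESC library 3 (0.65), CDKO1102 iMeLC (0.44) or CDKO1105 iMeLC (0.59), with an adjusted p of 0.00227 to 0.428 over 16 alternatives. The stage coincides with the table and with depth, so these cannot be told apart. The order of the 4 group levels was CTRL hESC, CTRL iMeLC, CDKO hESC, CDKO iMeLC, and the step between the second and the third was the widest.

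The genotype difference was of nearly equal size at both stages. The interaction, the log2 fold change in iMeLC minus that in hESC, was 0.03 (SE 0.32), given without a test since it is built from the contrasts that selected the gene. Over the alternatives it ran from -0.16 to 0.24. A difference between the stages of the size of the SE would not be detectable with 3 libraries a group.

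Among non-coding genes of similar level, AC104257.1 had the largest rise at both stages, in hESC only with the second CTRL library included. Genes annotated as long non-coding RNA that lay within 1 log2 unit of its average CPM numbered 89 in hESC, itself included, of 2633 non-coding genes tested. Its rise ranked first; the median log2 fold change of the other 88 was 0.032 and their largest was 1.71. Of these, 4 were called higher and 1 lower, beside 0.598% and 0.714% of all genes. That count was 12 and 3 with no low-count filter, 7 and 2 with DESeq2 and 0 and 1 in the 12-library fit. Over all genes these fits called 579 and 649 of 33898, 302 and 330 of 17457, and 23 and 49 of 20262. With 1 library left out, the count among the 88 was 0 and 0 without CDKO library 2 and 1 and 0 without CDKO library 1 or 3. It was 2 and 1 without CTRL library 1 and 8 and 1 without CTRL library 2. Over all genes, 1 and 4 of 17658 were called without CDKO library 2 and 278 and 215 of 17710 without CTRL library 2. The totals were 13 and 15 of 17846 without CDKO library 1, and 24 and 17 of 17702 without CDKO library 3. Without CTRL library 1 they were 40 and 62 of 17875. In iMeLC AC104257.1 ranked first of 48, of 4026 non-coding genes tested, where the others had a median of -0.12 and a largest value of 0.78. None of the others was called in iMeLC. At an unadjusted p under 0.05 there were 1 higher and 6 lower, with no share of all genes counted. DESeq2 called 1 higher and 2 lower, beside 639 and 840 of 20289 genes. Without CTRL1101, 2 were called higher and 8 lower, the 12-library fit called 1 and 1, and the fit with no low-count filter 0 and 2. Over all genes these called 1469 and 1177 of 20697, 606 and 704 of 20262, and 185 and 243 of 31204. AC104257.1 also ranked first with windows of 0.5 log2 unit (of 40 and 26 genes) and 2 log2 units (of 209 and 111 genes). Average CPM over both genotypes, not the level per length or in controls alone, set the comparison. That average, 5.81 log2 CPM in hESC and 6.14 in iMeLC, includes the rise of AC104257.1 itself. Its CTRL libraries were at 3.06, 3.93 and 3.97 log2 CPM in hESC and 3.68, 4.36 and 3.97 in iMeLC. These lie below the window of 1 log2 unit, so unchanged genes at its control level were not among those compared. The rank is part of how the gene was selected.

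**Figure D2:**
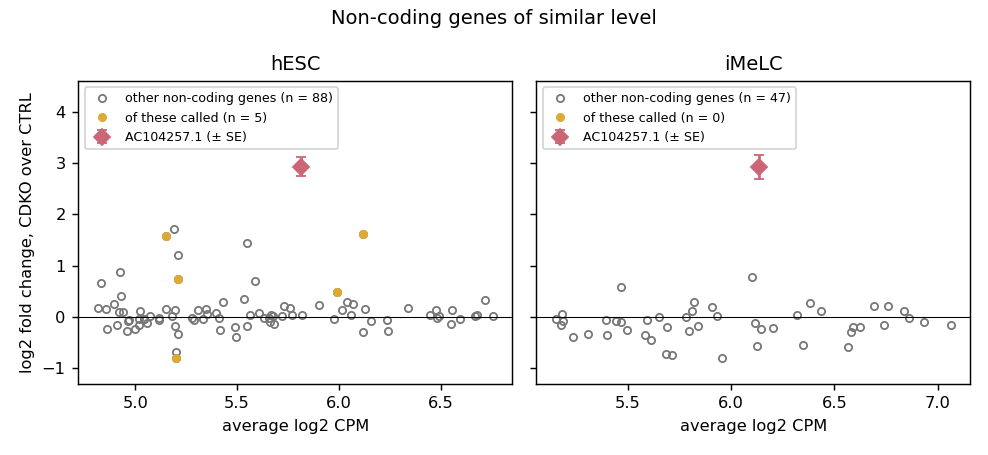
Log2 fold change of CDKO over CTRL against average log2 CPM for non-coding genes within 1 log2 unit of AC104257.1, in hESC (left) and iMeLC (right). Grey rings are other genes, filled yellow points are those called at an adjusted p under 0.05, and the diamond is AC104257.1 with its SE. The diamond sits at 2.93 in both panels, above largest values of 1.71 and 0.78 for the others with all libraries included.

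Of the 5 largest rises among the other genes in hESC, those of LINC01356 and LINC-ROR were called. LINC01356 was at 40.7, 31.2 and 30.8 CPM in CTRL hESC and 73.8, 93.3 and 147 CPM in CDKO hESC, 1.62 higher on the log2 scale (SE 0.23, adjusted p = 0.016). LINC-ROR, a long non-coding RNA linked to reprogramming, was at 14.4, 25.3 and 13.5 CPM and 53.3, 49.6 and 57.2 CPM, 1.59 higher on the log2 scale (SE 0.21, adjusted p = 0.0146). Both rose without overlap between the groups. The call of LINC-ROR was lost without any 1 of the CDKO hESC libraries and that of LINC01356 without CDKO hESC library 2 (adjusted p up to 0.0885 in each case, and 2.09e-20 to 0.110 for LINC-ROR and 1.92e-23 to 0.195 for LINC01356 over all alternatives). AL591742.2 (0.74) and LINC00632 (0.48) were the others called higher, and AC104461.1 (-0.80) was called lower; these 3 are named because they complete the count. All 3 lost the call without any 1 of the CDKO hESC libraries, and AL591742.2 and LINC00632 also without CTRL library 1.

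Several of the genes with large values were also high in 1 control library. LINC01108 was at 7.63, 38.1 and 5.60 CPM in CTRL hESC and 57.7, 54.7 and 55.3 CPM in CDKO hESC (log2 1.71, adjusted p = 0.174). Without the second CTRL library its value was 3.09 (adjusted p = 4.27e-06). ERVH48-1 was at 7.14, 57.2 and 10.7 CPM in controls, against 77.0, 85.3 and 43.2 CPM in CDKO (log2 1.45, adjusted p = 0.287), and 2.93 without that library (adjusted p = 0.00152). CCDC144NL-AS1 was at 5.29, 55.4 and 5.96 CPM in controls, against 49.2, 54.3 and 51.3 CPM in CDKO (log2 1.22, adjusted p = 0.418), and 3.19 without that library (adjusted p = 1.2e-06). For all 3 the second CTRL hESC library was the high one. AC104257.1 was at 15.2 CPM in that library, beside 15.6 CPM in the third. Without it AC104257.1 had a log2 fold change of 3.05 and ranked 3rd, below CCDC144NL-AS1 and LINC01108. In iMeLC the largest values after AC104257.1 were AC080038.1 (0.78), AP000943.2 (0.58), AL009031.1 (0.30), SNHG6 (0.27) and ZFAS1 (0.21). Without CTRL1101, AC080038.1 was called (1.11, adjusted p = 0.0124), and without CTRL1109 the value of AL009031.1 was 2.30 (adjusted p = 0.0588) and that of AP000943.2 1.18 (adjusted p = 0.134).

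LINC-ROR and LINC01356 had log2 fold changes of 0.18 and 0.16 in iMeLC (adjusted p = 0.819 and 0.882), where AC104257.1 had 2.93. In CTRL iMeLC, LINC-ROR was at 14.9, 39.0 and 44.5 CPM and in CDKO iMeLC at 48.0, 37.4 and 26.3 CPM, so the groups overlapped. The difference between the stages was -1.36 for LINC-ROR (adjusted p = 0.355) and -1.41 for LINC01356 (adjusted p = 0.422), and neither passed.

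A list of 48 long non-coding RNAs known in pluripotent cells or as regulators gave the wider setting. Of these, 44 were in the tables. In hESC, 33 were tested, 22 had a positive log2 fold change, 2 were called higher (LINC-ROR and LINC01356) and 0 lower. Over all genes 0.598% were called higher and 0.714% lower. DESeq2 called 2 and 2 of 44, the fit with no low-count filter 7 and 4 of 44, and the 12-library fit 0 and 0 of 37. Over all genes these called 302 and 330 of 17457, 579 and 649 of 33898, and 23 and 49 of 20262. With 1 library left out, 0 were called without CDKO library 2 and 1 higher without CDKO library 1 or 3. Leaving out any 1 of the CTRL libraries gave 3 higher. Over all genes, the left-out fits called from 5 (without CDKO library 2) to 493 (without CTRL library 2). The list's median log2 fold change was 0.044, beside -0.0018 over all genes. In iMeLC, 36 were tested, 17 were positive and 0 were called, with a median of -0.050 beside -0.028. Of all genes, 0.08% were called higher and 0.265% lower there. At an unadjusted p under 0.05 the list gave 3 higher and 4 lower in iMeLC, with no share of all genes counted. DESeq2 called 1 higher and 2 lower of 43, beside 639 and 840 of 20289 genes. Without CTRL1101, 3 were called higher and 5 lower of 36. The 12-library fit called 0 and 2 of 37, and the fit with no low-count filter 1 and 1 of 43. Over all genes these called 1469 and 1177 of 20697, 606 and 704 of 20262, and 185 and 243 of 31204. PCAT14, a long non-coding RNA first described in prostate cancer, had log2 values of 1.47 in hESC (adjusted p = 0.0612) and 1.28 in iMeLC (adjusted p = 0.135). LINC00261, an endoderm transcript, had 2.71 (adjusted p = 0.225) and 2.01 (adjusted p = 0.171), with the third CDKO hESC library at 9.83 CPM against 0.735 and 0.826 CPM in the others and a hESC value of 0.42 without it. KCNQ1OT1, the antisense RNA of an imprinted domain, had the list's lowest adjusted p in iMeLC, 0.0963, with a log2 value of -0.74. It was called without CTRL1101 (-0.80, adjusted p = 0.0223). LNCPRESS2 had 0.05 in hESC (adjusted p = 0.870) and -0.51 in iMeLC (adjusted p = 0.128). GAS5 had -0.34 in hESC (adjusted p = 0.133) and 0.05 in iMeLC (adjusted p = 0.879).

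The neighbourhood of AC104257.1 is sparse. On the side of lower coordinates, the nearest genes in the tables are AC087341.1, 163664 bases away, ADCY8 (an adenylyl cyclase), 266119 bases away, and AC103726.2, 358880 bases away. On the other side they are EFR3A, a plasma membrane protein, 586456 bases away, OC90, an inner ear matrix protein, at 706588 bases, and AC100868.1 at 706606 bases. AC087341.1 had at most 2 counts in any hESC library and 0 in iMeLC, AC103726.2 at most 1 count in any library, and OC90 at most 3. ADCY8 was the only gene within 500000 bases with enough counts to be tested.

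ADCY8 was at 0.984, 3.40 and 0.933 CPM in CTRL hESC and 6.94, 6.33 and 4.92 CPM in CDKO hESC, without overlap. Its log2 fold change was 1.77 (SE 0.43), which did not pass (adjusted p = 0.0892). Without CTRL hESC library 2, its highest control, the value was 2.65 and the gene was called. With all hESC libraries it was also called by DESeq2 (adjusted p = 0.00139) and by edgeR with no low-count filter (adjusted p = 1.55e-06). In iMeLC the groups overlapped and the value was 0.31 (adjusted p = 0.706). The difference between the stages, -1.42, did not pass (adjusted p = 0.457).

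Within 1000000 bases, 11 genes were in the tables and 6 were tested. None was called at either stage, though 6 of 6 had a positive log2 fold change in hESC and 5 of 6 in iMeLC (4 of 6 under upper-quartile scaling). At an unadjusted p under 0.05, 4 were higher in hESC and 3 in iMeLC, with 0 lower at either. The share of all genes at that threshold was not counted. DESeq2, which gave a fold change for 11 and 10 of these genes, called 2 and 1 higher. Over all genes it called 302 of 17457 higher in hESC and 639 of 20289 in iMeLC. The fit with no low-count filter called 3 of 11 higher in hESC and 0 of 10 in iMeLC. Over all genes that fit called 579 of 33898 and 185 of 31204 higher. Leaving out CTRL hESC library 2 gave 3 of 6 called higher in hESC, and leaving out CTRL hESC library 3 gave 1. In iMeLC leaving out CTRL1106 gave 2 and CTRL1101 gave 1. Over all genes these fits called 278 of 17710, 101 of 17607, 32 of 20613 and 1469 of 20697 higher. HHLA1, named for a long terminal repeat of HERVH associated with it, was at 29.7, 74.2 and 21.3 CPM in CTRL hESC and 153, 136 and 133 CPM in CDKO hESC (log2 1.75, SE 0.36, adjusted p = 0.0506). In iMeLC it was at 26.1, 67.0 and 22.3 CPM in controls, against 112, 88.7 and 86.2 CPM in CDKO (log2 1.32, adjusted p = 0.153). CTRL hESC library 2 and CTRL1106 iMeLC were the high controls. Without the first of these HHLA1 had 2.47 in hESC (adjusted p = 2.66e-05), and without the second 1.98 in iMeLC (adjusted p = 0.00342). Without CTRL hESC library 3 it had 1.43 in hESC (adjusted p = 0.0415). With all hESC libraries HHLA1 was called by DESeq2 (adjusted p = 0.0399) and by edgeR with no low-count filter (adjusted p = 7.06e-21). AC100868.1, which overlaps HHLA1 and OC90, had log2 values of 1.60 (adjusted p = 0.0818) and 1.10 (adjusted p = 0.203), with 2.39 in hESC without CTRL library 2 (adjusted p = 0.000132), and reads cannot be divided between these genes with certainty. EFR3A was at 0.39 and 0.06, ASAP1 at 0.10 and 0.37, and KCNQ3, a potassium channel subunit, at 0.14 and -0.32.

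**Figure D3:**
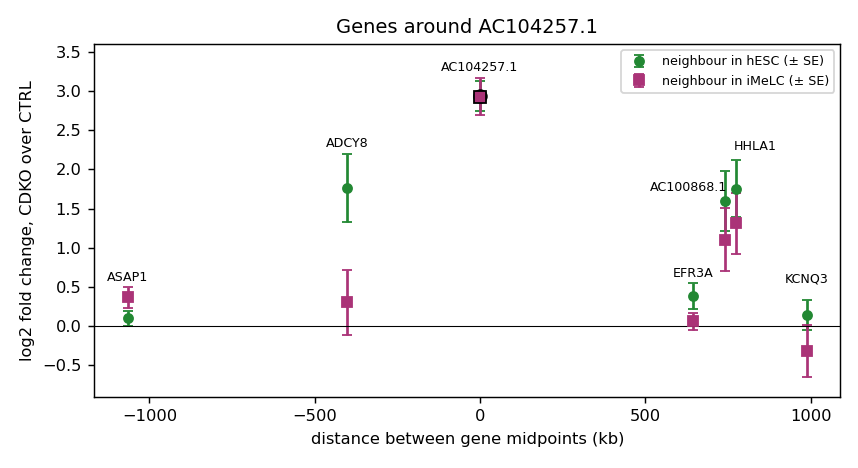
Log2 fold change of CDKO over CTRL, with SE, for AC104257.1 (outlined, at 0) and the 6 tested genes within 1000000 bases, against the distance between gene midpoints in kb. Circles are hESC and squares iMeLC. AC104257.1 is at 2.93 at both stages and the highest neighbour value is 1.77, for ADCY8 in hESC.

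Calls on the rest of the chromosome were near the shares over all genes. Of 628 other genes tested on chromosome 8 in hESC, 2 were called higher and 6 lower, with a median log2 fold change of 0.028 beside -0.0018 over all genes, of which 0.598% were called higher and 0.714% lower. In iMeLC, 0 of 711 were called higher and 2 lower, with a median of -0.011 beside -0.028, where 0.08% of all genes were called higher and 0.265% lower. Within 10000000 bases, 63 and 65 genes were tested and 0 were called by edgeR, with medians of 0.11 in hESC and 0.039 in iMeLC.

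The transcripts of AC104257.1 were compared with all GENCODE 29 transcripts by BLASTN, in the sense direction, since shared sequence bears on how reads are assigned. Sequence of at least 200 bases at 80% identity or more was shared with 36 genes, of which 31 are in the tables and 6 are protein-coding. The shared stretch was 486 bases at 81.1% identity for LINC00458, 397 bases at 87.4% for LINC-ROR, 265 bases at 85.3% for ESRG, 245 bases at 92.2% for LINC00678, 243 bases at 92.2% for AC100868.1 and 241 bases at 92.1% for RPL39L. Of the 5 exons of the longest transcript, the first was aligned over more than 50% of its length by transcripts of 47 genes, the second by 54, the third by 31 and the fourth by 50. The last exon, of 299 bases, was matched by 0 genes. How the counting treated reads that match several places is not stated by the sources used here, so counts from the first 4 exons are uncertain. A gene-level count does not show how many reads came from the last exon.

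**Figure D4:**
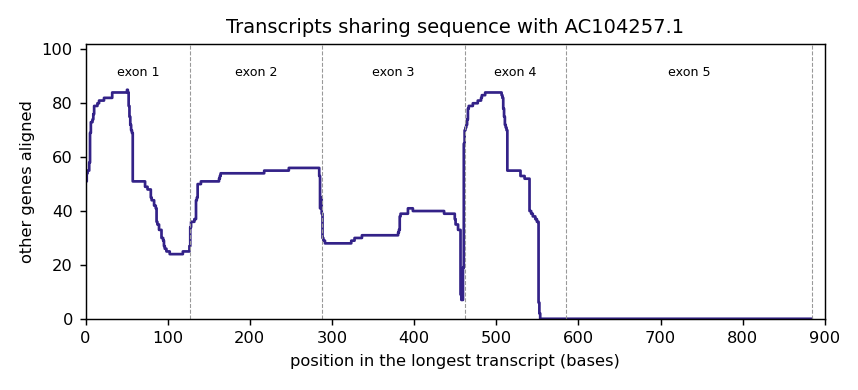
Number of other genes with a transcript aligned in the sense direction at each base of the longest AC104257.1 transcript (BLASTN, alignments of any length). Dashed lines end the exons. The alignments cover exons 1 to 4 up to base 553, and none falls in the last 331 bases.

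Genes that share this sequence had mostly positive values in hESC and mostly negative values in iMeLC. In hESC, 23 were tested, 18 had a positive log2 fold change, 1 (LINC-ROR) was called higher and 0 lower, against 0.598% higher and 0.714% lower over all genes. Their median was 0.45 beside -0.0018 over all genes. At an unadjusted p under 0.05, 10 were higher and 0 lower. The share of all genes at that threshold was not counted at either stage. With CTRL hESC library 2 left out, 6 were called higher, and with any 1 CDKO hESC library left out 0 were. Over all genes the first of these fits called 278 of 17710 higher. Those without CDKO library 1, 2 or 3 called 13 of 17846, 1 of 17658 and 24 of 17702 higher. Over the 12-library fit 0 of 27 were called, DESeq2 called 3 of 31 higher and the fit with no low-count filter called 10 of 31 higher. Over all genes these fits called 23 of 20262, 302 of 17457 and 579 of 33898 higher. In iMeLC, 27 were tested, 10 were positive and 0 were called, with a median of -0.13 beside -0.028. At an unadjusted p under 0.05, 1 was higher and 2 lower. DESeq2 called 1 higher and 1 lower of 30, beside 639 and 840 of 20289 genes. The iMeLC median depended on single controls: without CTRL1109 it was 0.27, and without CTRL1101 it was -0.26 with 5 called lower. Without CTRL1101, 1177 of 20697 genes were called lower.

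The close matches named above had log2 values from -0.10 to 1.60 in hESC and did not share 1 direction. LINC-ROR had 1.59 in hESC and 0.18 in iMeLC, and AC100868.1 had 1.60 and 1.10. Of all genes sharing sequence, 18 of 23 tested were positive in hESC and 10 of 27 in iMeLC. ESRG was at 2328, 2865 and 2730 CPM in CTRL hESC and 3012, 3168 and 2881 CPM in CDKO hESC, 0.19 on the log2 scale (adjusted p = 0.338), and had -0.41 in iMeLC (adjusted p = 0.308). LINC00678 had 0.03 in hESC and -0.16 in iMeLC, and RPL39L, a ribosomal protein paralogue, -0.10 and -0.18. LINC00458 had 0.70 in hESC and 0.42 in iMeLC, where CTRL1109 was at 449 CPM against 42.2 and 80.4 CPM in the other CTRL lines. The value of LINC00458 in iMeLC was 2.06 without that library (adjusted p = 0.0512). AL009031.1 had the highest value of the group in hESC, 1.77 (adjusted p = 0.294), from 13.0, 3.45 and 8.14 CPM in controls to 7.19, 9.58 and 66.2 CPM in CDKO, and 0.047 without CDKO library 3. AL353751.1 had the lowest in iMeLC, -1.37 (adjusted p = 0.367), with CTRL1109 at 2.10 CPM against 0.292 and 0.343 CPM in the other CTRL lines, and 0.16 without CTRL1109. These 2 were chosen after their values were seen. None of those tested reached the 2.93 of AC104257.1 at either stage.

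**Figure D5:**
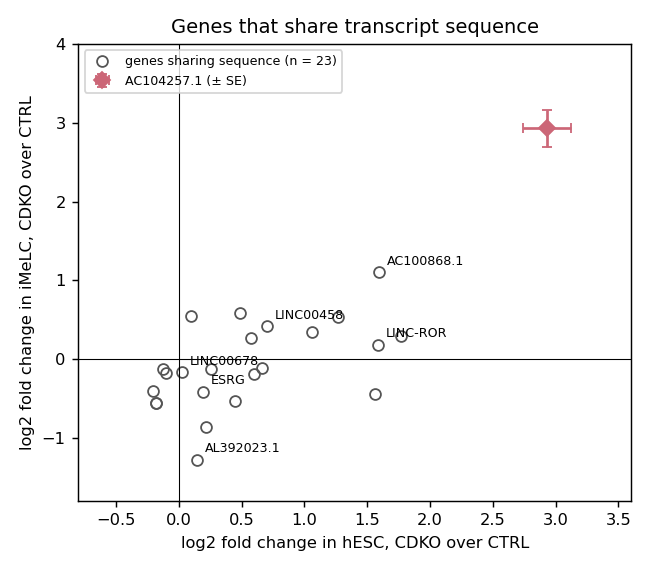
Log2 fold change of CDKO over CTRL in iMeLC against that in hESC for the 23 genes tested at both stages that share transcript sequence with AC104257.1 (rings), and for AC104257.1 (diamond, with SE). The rings lie between -0.21 and 1.77 in hESC, and the diamond is at 2.93 on both axes.

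The genes whose pattern was most like that of AC104257.1 were ranked by the smaller of 2 Pearson correlations of log2 CPM, over 6 hESC and over 6 iMeLC libraries. Of 17070 genes compared, 27 had a smaller value above 0.9. These were led by MPP1 (0.96), SEPT8 (0.96), TRDN (0.96), NLRP10 (0.94), B4GALNT1 (0.94), JPH1 (0.93), IRX4 (0.93), ZNF146 (0.92), EHBP1L1 (0.92) and EXOC8 (0.92). The libraries of a stage fall into 2 genotypes, so a gene that differs between them with little spread scores high whatever the size of its difference.

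Within that group the sizes varied widely. TRDN had log2 fold changes of 1.15 in hESC and 2.47 in iMeLC, and NLRP10, of the inflammasome receptor family, 2.54 (adjusted p = 0.0146) and 2.01 (adjusted p = 0.107). IRX4, a homeobox factor of the heart ventricle, had 2.16 (adjusted p = 0.0418) and 2.30 (adjusted p = 0.0905). MPP1, a membrane scaffold protein, had 0.45 (adjusted p = 0.185) and 1.12 (adjusted p = 0.0164). JPH1, a junctophilin also on chromosome 8, had 0.23 and 0.20, and ZNF146, SEPT8 and EXOC8 stood between 0.15 and 0.31 at both stages, none of them called. Of the 6 fits that leave out 1 library, IRX4 lost its hESC call in 5 (all but that without CTRL library 2, adjusted p up to 0.178), NLRP10 its hESC call in 2 (CDKO library 1 or 2) and MPP1 its iMeLC call in 3 (CDKO1102, CDKO1105 or CTRL1109). With Pearson correlation over all 12 libraries, 4 of the 10 remained (JPH1, B4GALNT1, TRDN and EHBP1L1), and with Spearman correlation 0 did, when NORAD came first.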

How the data were processed

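Per the labels' protocols, total RNA came from sorted cells or cell pellets and libraries from the SMARTer Stranded Total RNA kit. The authors deposited whole-number counts per gene symbol, not normalised, in 1 table for each stage. The submitters' processing notes name FastQC, cutadapt, edgeR and GRCh38; the aligner, counter, annotation, strand setting and treatment of multiply matching reads are not stated by the sources used here. The hESC columns name a genotype and a number but no line, so they were assigned to groups only.

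Each stage was fitted on its 6 libraries with edgeR 4.0.16 (R 4.3.3): filterByExpr, TMM, quasi-likelihood test, two-sided, Benjamini-Hochberg over all genes tested, called at an adjusted p under 0.05. Stage contrasts and the interaction used all 12 libraries as 4 group means. CPM used TMM library sizes. Library totals of 12517593 to 109479071 counts set the precision. The code was tested on simulated data. No 2 libraries held identical counts. Symbols were matched to GENCODE 29 (34217 of 36762, 93.1%). Transcripts were compared with BLASTN 2.17.0 at limits chosen after seeing the data.

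AC104257.1 and the gene lists were chosen with earlier results of these data known. Named genes were AC104257.1, the TET genes, the 3 nearest genes on each side, called members of the long non-coding list with up to 4 others of the smallest adjusted p, the 5 largest rises among non-coding genes of similar level at each stage, and the 10 genes of most similar pattern, with others named where a count or list needed them. Alternatives were RLE and upper-quartile scaling, no low-count filter, DESeq2 1.42.0, all 12 libraries in 1 fit, and each library left out in turn. No gene sequence is printed.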

Additional observations from a re-analysis of the deposited data

How the results depend on the processing

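The log2 fold change of AC104257.1 between genotypes stayed within 2.69 to 3.08 in hESC and 2.76 to 3.13 in iMeLC over 11 alternatives each, and it ranked first among non-coding genes of similar level with all 3 windows. With 1 library left out, an alternative chosen after seeing the data, its rank was 1 to 3 in hESC (3 without CTRL library 2) and 1 in iMeLC. How many genes were called was far less stable. In hESC, 226 genes were called, against 1228 with no low-count filter, 632 with DESeq2, 72 with all 12 libraries in 1 fit, and 5 to 493 with 1 library left out (5 without CDKO library 2, 493 without CTRL library 2). In iMeLC, 69 were called, against 428 with no filter, 1479 with DESeq2, 1310 with all 12 libraries, and 15 to 2646 with 1 library left out (15 without CDKO1102, 2646 without CTRL1101). The interaction had 4 called genes, 29 with no filter, 192 with DESeq2 and 1 to 439 with 1 library left out (439 without CTRL1101 iMeLC). The cause was not tested. The stage difference of AC104257.1 fell below the threshold in CTRL with RLE scaling (0.56) and upper-quartile scaling (0.28), and in CDKO with upper-quartile scaling (0.21); with 1 library left out it ran from 0.40 to 0.83 in CTRL and 0.44 to 0.79 in CDKO. With upper-quartile scaling the split of stage calls was 3903 higher and 7539 lower in CTRL, against 5981 and 4032, and 4113 and 9561 in CDKO, against 6510 and 5603. Of the 10 genes of most similar pattern, 4 were shared with the list by Pearson correlation over 12 libraries and 0 with that by Spearman correlation. With shared sequence of at least 100 bases, 61 genes qualified and 4 of 35 tested were called higher in hESC, beside 0.598% of all genes. No paired analysis was possible because the hESC columns carry no line, and the control and knockout lines have different numbers.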
